A study of Homo sapiens with 10 samples.

Results

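STAT3 binding was compared in ER-Src cells before and after transformation, from 1 list of called binding sites for each state. On chromosomes 1 to 22 and X, the list of non-transformed cells holds 42810 STAT3 sites and the list of transformed cells holds 80265, together 123075 of the 879550 sites in the 10 lists of the series. A site is a peak called by MACS, represented by its summit, and it was counted as found in the other state when that list has a summit within 300 bp. A site of non-transformed cells with such a match is called kept and one without a match is called lost, whereas a site of transformed cells without a match is called gained. These names describe the lists, since a weak site can be missing from a list because it fell short of the threshold for calling.

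ER-Src cells are MCF-10A cells, an immortalized but non-transformed breast epithelial line, in which the v-Src kinase is joined to the part of the estrogen receptor that binds its ligand and is switched on by tamoxifen. The non-transformed sample is labelled as grown with ethanol, the solvent control, and the transformed sample as taken after 12 h of transformation, induced with 1 μM 4-hydroxy-tamoxifen. The library names in the list headers carry times of 36 h (ethanol) and 12 h (tamoxifen). Both states were immunoprecipitated with antibody 9131, which the labels give as STAT3 and which is known as an antibody against the tyrosine-phosphorylated form of the protein. The same line, and so the same v-Src fusion, is in every sample, and the other 8 lists cover FOS, JUN, and JUNB, which are AP-1 proteins, and the NF-κB subunit NFKB1, each in both states. Each list comes from 1 library, so that nothing was checked against a replicate and the states were not tested against each other. The 95% intervals describe the sampling of sites within a list, by Wilson's method for shares and by order statistics for medians, and not the variation between cultures. Sites are not replicates of a state.

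STAT3 is a transcription factor that waits in the cytoplasm until a tyrosine kinase, such as a JAK or Src, phosphorylates it. The phosphorylated protein forms dimers, enters the nucleus, and binds DNA, often close to other factors that occupy enhancers. In breast cells it acts downstream of interleukin-6 and is active in many tumors, and AP-1 and NF-κB proteins are known to share many of its target sites.

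The 2 STAT3 libraries differ in ways that bear on site numbers. The library of non-transformed cells had 20488488 aligned tags, of which 47% lay at a position already taken and were removed, leaving 10929003. The library of transformed cells had 11637618 tags, of which 23% were removed, leaving 8967267, which is 0.82 times the other. Pileup, the number of extended tags that cover a summit, was therefore divided by the filtered tags of its own library and is given as tags per 1000000, abbreviated ppm. On this scale 1 tag is worth 0.0915 before and 0.112 after transformation, and the weakest sites, with 5 and 4 tags, therefore have 0.457 and 0.446 ppm. MACS extended the tags to 150 bp in the first library and 119 bp in the second. With 1 tag allowed per position and strand, pileup cannot pass 300 tags (27.4 ppm) or 238 tags (26.5 ppm), and the highest summits reached 19.3 and 15.9 ppm.

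Of the 42810 STAT3 sites in non-transformed cells, 30366 were kept (70.9%, 95% interval 70.5 to 71.4%) and 12444 were lost. Of the 80265 sites in transformed cells, 30809 had a match and 49456 were gained (61.6%, 61.3 to 62.0%). Transformed cells therefore had 1.87 times as many listed sites from the shallower library. Of the 5 proteins, STAT3 had the smallest kept share, against 74.4% for JUNB, 79.0% for JUN, 83.0% for FOS, and 89.3% for NFKB1, and the list of each protein was longer in transformed cells, by factors of 1.34 to 5.57. The order of these shares is no measure of stability, because a longer list offers more matches. In transformed cells the list holds 80265 sites for STAT3 and 164605 for FOS. The nearest summit of the other state was over 200 and at most 300 bp away for 804 sites of non-transformed cells and over 300 and at most 400 bp away for 583, with a median of 0.823 ppm in either class. For the sites of transformed cells the numbers were 1132 and 1213, with a median of 0.892 ppm in either class. A summit of the other state lay within 50 bp of 50.7% of the sites of non-transformed cells and 27.02% of those of transformed cells.

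Lost and gained sites were weaker than kept ones. In non-transformed cells the median pileup was 1.10 ppm at kept sites (quartiles 0.823 and 1.65) and 0.732 at lost sites (0.640 and 0.823). In transformed cells it was 2.01 at kept sites (1.12 and 3.68) and 1.00 at gained sites (0.781 and 1.45). The called peaks were shorter as well, with medians of 165 bp for lost and 169 bp for gained sites, against 237 bp and 278 bp for kept sites in the non-transformed and transformed list, respectively. The strong classes differed in number. Of the sites with at least 2 ppm, 120 of 5832 in the non-transformed list were lost and 7355 of 23445 in the transformed list were gained. At 5 ppm or more, 11 were lost beside 729 kept, and 638 were gained beside 4701 kept. Each list was filtered on its own values and more sites of transformed cells pass, so these counts support no direction. A called peak of the other state lay across 82 of the 120 strong lost sites, but across 165 of the 7355 strong gained ones. Neither such a peak nor a summit within 1000 bp was found for 36 of the strong lost and 6534 of the strong gained sites.

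The kept share followed the strength of the site. In the strongest decile of the non-transformed list, ranked by the q-value of MACS with ties broken by pileup, 98.5% of the sites were kept (98.1 to 98.8%), and in the weakest decile 34.6% were (33.2 to 36.1%). In the transformed list there were matches for 84.5% of its strongest decile (83.7 to 85.2%) and 15.5% of its weakest (14.7 to 16.3%). The deciles of the 2 lists are not to be compared with each other, because the transformed list is longer and some of its sites must lack a match. With that list shortened by rank to 42810 sites, 54.9% of the sites of non-transformed cells were kept and 45.5% of those of transformed cells were gained. In the full list, 1247 of the 8026 strongest sites of transformed cells had no listed site within 300 bp before transformation.

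**Figure D1:**
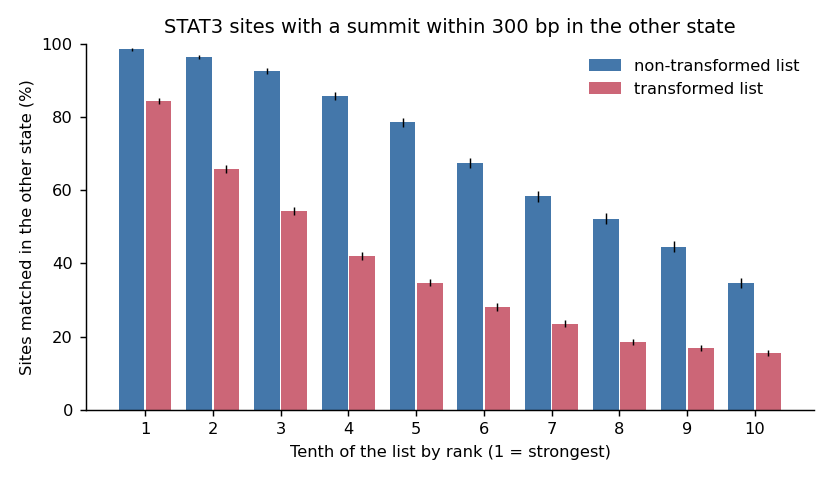
Share of STAT3 sites (%, y axis) with a summit within 300 bp in the other state, for deciles of each list from the strongest to the weakest (x axis), with Wilson 95% intervals as bars. The share falls from 98.5 to 34.6% in the non-transformed list and from 84.5 to 15.5% in the transformed list.

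At kept sites the STAT3 signal was higher after transformation. Matching each summit with its mutual nearest neighbor gave 30098 pairs, with a median of 29 bp between the summits, and the median ratio of pileup in ppm in transformed to non-transformed cells was 1.69 (1.68 to 1.71). The ratio was above 1 at 24963 pairs (82.9%), and its 5th and 95th percentiles were 0.711 and 4.69. At least 2-fold higher pileup was found at 11680 pairs (38.8%, with 38.3 to 39.4% as the interval) and at least 2-fold lower pileup at 309 (1.03%). These 2 percentages are the background for the groups of pairs described below. The ratio reached 4 at 2412 pairs and 8 at 205.

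The size of this shift depends on how the libraries are set against each other, because it is the median over all pairs. On the log2 scale it was 0.75 with filtered tags, 1.29 with all aligned tags, 0.62 with the fold enrichment of MACS, and 1.09 when pileup was also divided by the fragment length. Relative to the shift, with each ratio divided by the median, 12.8% of the pairs were at least 2-fold higher and 9.85% at least 2-fold lower. The higher pairs then made up 56.5% of those past 2-fold, against 97.4% before this step. The other proteins, scaled the same way, had median ratios of 0.949 for FOS, 0.964 for JUNB, 1.03 for NFKB1, and 1.29 for JUN, and the share of pairs at least 2-fold higher was 8.55%, 7.81%, 9.3%, and 14.8%, respectively. At least 2-fold lower were 6% (FOS), 7.05% (JUNB), 6.15% (NFKB1), and 0.862% (JUN). Among the 5 proteins STAT3 had the highest median ratio. For NFKB1 and JUN the fold enrichment gave medians of 1.64 and 1.40, so on that scale NFKB1 was above STAT3, at 1.54.

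The pairs of middle and high strength had the larger ratios. Ordered by the geometric mean of the pileups of the 2 states, the median ratio was 1.04 in the weakest decile of pairs, 2.31 in decile 8, and 1.83 in the strongest, and 3.22%, 60.6%, and 41.5% of the pairs in these deciles were at least 2-fold higher. Both sites of a pair had to be called, so a weak pair could not hold a large ratio. Across pairs the pileups of the 2 states had a Spearman correlation of 0.583 (n = 30098 pairs from 1 library per state), against 0.623 to 0.745 for the other proteins.

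**Figure D2:**
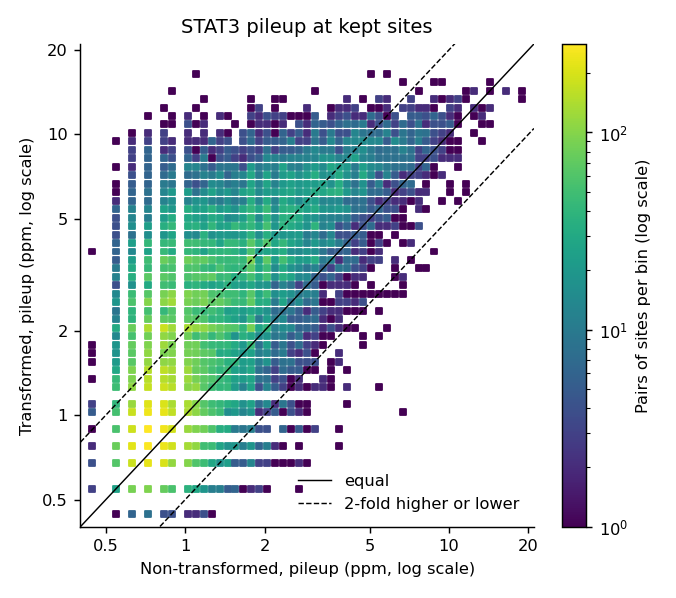
STAT3 pileup in ppm at 30098 pairs of kept sites, in non-transformed (x axis) and transformed cells (y axis), both on log scales, with color for the number of pairs in a bin, a solid line for equal values, and dashed lines for 2-fold differences. Most pairs (82.9%) lie above the solid line, 11680 lie on or above the upper dashed line, and 309 lie on or below the lower one.

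Although nearly all of the strongest sites were listed in both states, their order changed. Of the 1000 strongest sites of non-transformed cells, 988 were listed in transformed cells, of which 449 remained among the first 1000, 433 had ranks past 1000 up to 5000, 100 had ranks past 5000 up to 20000, and 6 ranked lower still. Of the 1000 strongest sites of transformed cells, 962 were listed before transformation, again 449 within the first 1000, 339 past it up to 5000, 136 past 5000 up to 20000, and 38 past 20000. The shared part was smaller at the very top, with 27 of the first 100 and 2 of the first 10. For the other proteins the first 1000 sites shared 48.7% (FOS, 45.6 to 51.8%), 51.4% (JUN), 52.5% (JUNB), and 59.2% (NFKB1, 56.1 to 62.2%), against 44.9% for STAT3 (41.8 to 48.0%). The proteins were not tested against each other. The first 1000 are also an unlike part of each list, which in non-transformed cells holds 13252 sites for NFKB1, 42810 for STAT3, and 119754 for FOS.

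The strongest site of non-transformed cells, at chr17:40540432-40541090 in hg19, had a pileup of 18.8 ppm, and its match in transformed cells had 13.4 ppm and rank 12. The site at chr1:150533736-150534916 ranked second with 19.3 ppm and had 14.1 ppm and rank 13 after transformation. The third, at chr12:7167331-7168152, went from 16.8 to 14.3 ppm and has rank 4 in transformed cells. These sites thus stayed near the top with less pileup in ppm. The same held for most of the first 10 sites of non-transformed cells, since 8 had a lower value in transformed cells, with ratios from 0.705 to 0.874, and a further site, at chr2:174024499-174024935, had 14.4 and 14.5 ppm. These sites were picked for a high value in the library of non-transformed cells. The direction also depends on the scale. All aligned tags in place of filtered tags raise every ratio, with a median over all pairs of 2.44 instead of 1.69. Over the 1000 strongest the median was 5.76 ppm in their own list and 8.25 ppm at the 988 matches. The site of rank 10, at chr1:121484081-121485544, next to the centromere, had 13.5 and 9.48 ppm, and NFKB1 had 23.6 ppm there in non-transformed cells. Of the first 10 sites, 6 had a summit in all 10 lists of the series, as did 47 of the first 100, 398 of the first 1000, and 12.4% of all STAT3 sites of non-transformed cells. In transformed cells the numbers were 7, 39, and 337, and 6.65% of all sites.

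The first 10 sites of transformed cells, picked for a high value in that library, were mixed. Their ratios in ppm ran from 0.848 to 14.5, and on this scale 2 of them had a lower value in transformed cells. Over the 1000 strongest the median was 9.70 ppm in their own list and 4.30 ppm at the 962 matches. At the strongest site, chr5:167753835-167754594, pileup went from 1.10 ppm and rank 18632 to 15.9 ppm and rank 1, a ratio of 14.5. FOS, JUN, JUNB, and NFKB1 each had a summit there in transformed cells, at 3.26, 1.52, 3.05, and 3.41 ppm, and none in non-transformed cells. The fifth site, at chr15:85570561-85571180, had the same pattern, with 1.19 ppm and rank 13599 before transformation and 13.7 ppm after, a ratio of 11.5, and all 4 other proteins listed in transformed cells alone. Neighboring sites at chr1:230249155-230250478 and chr1:230239976-230242411 had ranks 6 and 7, both at 15.9 ppm, from 5.22 and 5.95 ppm. The third site, at chr14:81087774-81088525, was strong in both states, with 12.6 and 14.8 ppm.

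The 5 largest rises into the first 1000 sites of transformed cells started near the bottom of the other list. The site at chr14:71608841-71609621 had 6 tags, 0.549 ppm, and rank 41330 in non-transformed cells, and 86 tags, 9.59 ppm, and rank 594 in transformed cells, the highest ratio of all pairs at 17.5. At chr14:56269731-56271274 pileup went from 0.640 to 10.0 ppm, and at chr1:166557949-166558627 from 0.640 to 8.92. The other 2, at chr5:83122678-83123542 and chr12:60702137-60702811, had 0.640 ppm before and 8.81 and 8.70 after transformation. At the 2 sites on chromosome 14 the other 4 proteins were listed in transformed cells and in no list of non-transformed cells, whereas FOS had a summit in both states at the other 3. JUN also had a summit in both states at the sites on chromosomes 5 and 12, and JUNB at the site on chromosome 5. A value of 6 or 7 tags has a wide counting error, so these ratios are imprecise.

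The 5 largest falls in rank had pileup ratios from 0.148 to 0.414. These ratios, like those of the rises, are not divided by the median over all pairs, 1.69. At chr22:50344808-50345448 pileup went from 74 tags, 6.77 ppm, and rank 286 to 9 tags, 1.00 ppm, and rank 47736, a ratio of 0.148 and the lowest of all pairs. At chr8:121786177-121786527 it went from 5.31 to 1.23 ppm and at chr7:13063992-13064371 from 5.40 to 1.90. The sites at chr16:33962957-33963585 and chr20:26189682-26190603 went from 4.57 to 1.90 and from 5.95 to 2.01 ppm. The last 3 of these were listed for all 5 proteins in both states. On chromosome 20 NFKB1 (8.27 and 2.07 ppm) and FOS (3.38 and 1.22) were lower as well, whereas JUN (3.34 and 3.85) and JUNB (2.07 and 2.29) were higher. On chromosome 16 NFKB1 (4.96 and 1.76), FOS (2.36 and 1.36), and JUN (2.33 and 2.11) were lower and JUNB (1.53 and 2.22) was higher. On chromosome 7 every other protein was lower in transformed cells.

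Among the strongest gained sites, some were new positions and others lay inside peaks already present. The sites at chr8:107297660-107298490, with 13.7 ppm and rank 31, and chr8:105764440-105764980, with 11.8 ppm and rank 154, had no STAT3 peak across them before transformation, and the nearest STAT3 summit was 14739 and 5503 bp away. At both, FOS, JUN, JUNB, and NFKB1 all had a summit in transformed cells, and in non-transformed cells only JUN at the second site did, at 0.757 ppm. The other 3 of the 5 strongest, at chr14:34965652-34966591, chr17:4752074-4752838, and chr6:89744949-89746185, had 12.9, 12.2, and 12.6 ppm. Each overlapped a called STAT3 peak of non-transformed cells whose summit was 366, 329, or 370 bp away, with 5.22, 2.93, and 9.15 ppm, so they count as gained through the distance between the summits.

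The strongest lost sites were mostly of this second kind. The first, at chr5:140940187-140940835, had 16.6 ppm and rank 5 in non-transformed cells, and it overlapped a peak of 1838 bp in transformed cells that ranks 41 with 13.2 ppm at a summit 1271 bp away. The sites at chr6:58776456-58779284, near the centromere, and chr5:59041032-59041777 also overlapped a peak of transformed cells, with summits 1370 and 614 bp away and 7.81 and 10.4 ppm. The site at chr6:89744314-89745988 and the gained site at chr6:89744949-89746185 are the same region, in which the highest point lay 370 bp apart in the 2 states. The lost site also overlapped another peak of transformed cells, at chr6:89744263-89744816, with 6.24 ppm and rank 3195 at a summit 1011 bp away. Only chr3:12475531-12475959 of these 5 sites had no such peak. It had 134 tags, 12.3 ppm, and rank 20 in non-transformed cells, its nearest STAT3 summit in transformed cells was 11008 bp away, and no summit of any other protein was listed within 300 bp in either state.

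The classes differed in the other proteins found beside STAT3. Of the kept sites in the non-transformed list, 91.9% had an AP-1 summit (FOS, JUN, or JUNB) within 300 bp in the same cells (91.5 to 92.2%), against 52.2% of the lost sites (51.3 to 53.1%). In transformed cells, AP-1 was at 95.2% of the kept sites (94.9 to 95.4%) and 83.2% of the gained sites (82.8 to 83.5%). NFKB1, the p50 subunit of NF-κB and its precursor, was at 78.0% of the kept and 44.0% of the gained sites in transformed cells. None of the 4 other proteins was listed at 47.3% of the lost sites, against 7.77% of the kept sites of non-transformed cells and 15.2% of the gained sites of transformed cells. At lost sites the pooled AP-1 share was 52.2% in non-transformed and 52.3% in transformed cells, but the single proteins moved in both directions. FOS went from 41.3 to 37.7%, JUN from 34.8 to 44.3%, and JUNB from 20.97 to 25.02%. The AP-1 lists of transformed cells are 1.34 to 1.56 times as long, and a longer list offers more matches. The pooled share at kept sites of the non-transformed list rose from 91.9 to 95.4%. The similar pooled shares at lost sites are therefore no measure of unchanged AP-1 there.

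**Figure D3:**
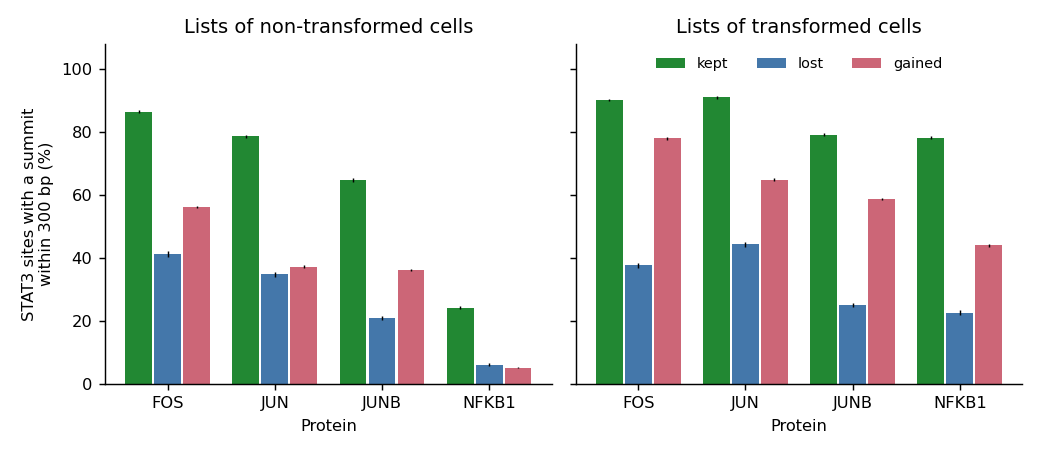
Share of kept (of the non-transformed list), lost, and gained STAT3 sites (%, y axis) with a summit of FOS, JUN, JUNB, or NFKB1 (x axis) within 300 bp, in the lists of non-transformed cells (left) and transformed cells (right), with Wilson 95% intervals as bars. For each protein and state kept sites have the highest share, and in transformed cells gained sites lie between kept and lost ones, with FOS at 78.0% of gained and 37.7% of lost sites.

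Many gained sites had an AP-1 summit in the lists of non-transformed cells, but the share was lower than the 91.7% at kept sites of the transformed list. An AP-1 summit was listed there at 62.8% of the gained sites (62.4 to 63.2%), with FOS at 56.2%, JUN at 37.2%, and JUNB at 36.2%, and NFKB1 was listed at 5.14%. The NFKB1 library of non-transformed cells is the shallowest of the series, with 4837474 filtered tags, and its list holds 13252 sites. Of the 7355 gained sites with at least 2 ppm, 68.4% had AP-1 in non-transformed cells and 96.3% in transformed cells. For kept sites of the transformed list at that level, the shares were 94.0% and 97.8%. The 120 lost sites of that strength had AP-1 at 90.8% in non-transformed cells (84.3 to 94.8%), so the low share of lost sites was not found among the strong ones. However, 82 of these 120 overlapped a called STAT3 peak of transformed cells, so this share mostly covers regions listed in both states.

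The difference in AP-1 between the classes remained among sites of similar significance. Where the −log10 q-value was from 4 to 7, AP-1 was at 89.8% of the kept and 53.7% of the lost sites of non-transformed cells, and at 89.5% of the kept and 78.4% of the gained sites of transformed cells. At 15 or more the shares were closer, with 95.3% and 90.7% for kept and lost sites, and 97.3% for kept sites with 10451 of 11004 gained sites. The lists of AP-1 sites are long, and part of any share is met by position alone, which was not estimated here.

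The pileup ratio at kept sites also differed with the other proteins listed there. Where AP-1 was listed in both states, 39.5% of 27279 pairs were at least 2-fold higher (median ratio 1.72), close to the background of 38.8%, and where it was listed in transformed cells alone 44.9% of 1440 pairs were (1.76). Pairs with AP-1 in non-transformed cells alone had 13.9% of 380 (10.8 to 17.8%, median ratio 1.20), and those with no AP-1 in either state 19.5% of 999 (17.2 to 22.1%, median ratio 1.22). NFKB1 gave a similar picture, with 45.0% of 16581 pairs where it was listed in transformed cells alone, 36.8% of 6990 where it was listed in both, 43 of 287 where it was listed in non-transformed cells alone, and 25.8% of 6240 where it was in neither. The median pileup in non-transformed cells was 0.915 ppm at pairs without AP-1 in either state and 1.10 with AP-1 in both. It was 0.915 where AP-1 was listed in transformed cells alone and 1.01 where it was listed in non-transformed cells alone. At pairs where the other protein was listed in both states too, the log2 ratios of STAT3 and that protein had Spearman correlations of 0.394 (NFKB1, n = 6990), 0.383 (FOS, n = 25130), 0.303 (JUN, n = 23118), and 0.286 (JUNB, n = 18747). The points are sites of the same 4 libraries in each case and share their depths.

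The increase in sites was found on every chromosome. The ratio of site numbers ran from 1.63 on chromosome 19 (1.51 to 1.77) and 1.66 on chromosome 1 (1.61 to 1.72) to 2.07 on chromosome 15 (1.93 to 2.22) and 2.18 on chromosome X (2.02 to 2.36). Chromosome 19 also had the lowest share of gained sites, 53.9% against 69.1% on chromosome X, and the lowest median pileup ratio at pairs, 1.44 against 1.83 on chromosome 18. The kept share ran from 65.4% on chromosome 13 to 77.5% on chromosome 20. The ends of this order were in part those of other proteins, since chromosome 19 had the lowest ratio for FOS (1.29), JUN (1.33), and JUNB (1.19), and chromosome X had the highest for JUN (1.76) and NFKB1 (6.78). Chromosome 19 was also lowest (2.61) and chromosome X highest (5.48) among sites with at least 2 ppm, and without chromosome X the lowest was still chromosome 19. The order changed with the length of the list. With the transformed list shortened by rank to 42810 sites, which sets the overall ratio to 1, the lowest ratio was on chromosome 1 (0.864) and the highest on chromosome 22 (1.12).

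**Figure D4:**
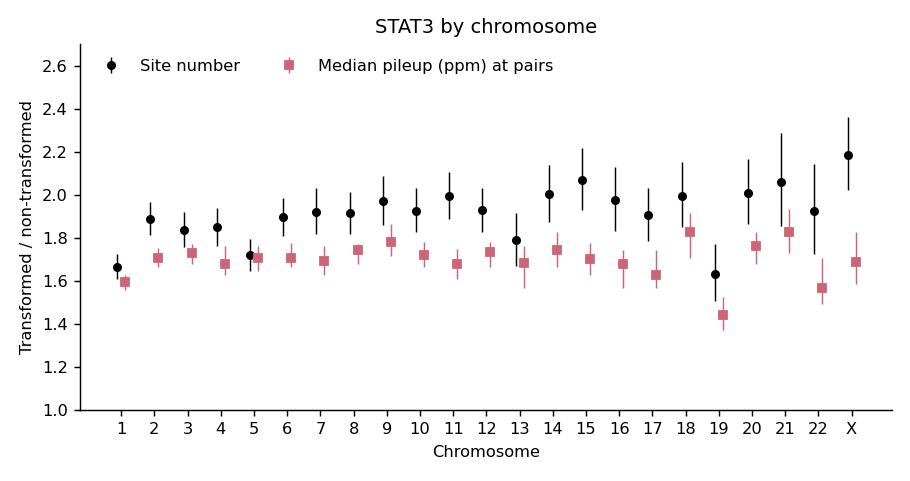
Ratio of transformed to non-transformed cells for each chromosome (x axis), for the number of STAT3 sites (black circles) and for the median pileup in ppm at pairs (red squares), with 95% intervals from counting and from order statistics as bars, on a y axis that starts at 1. All points lie above 1, with chromosome 19 lowest in pileup ratio (1.44) and site ratio (1.63) and chromosome X highest in site ratio (2.18).

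STAT3 sites lay closer together in the longer list. The median distance between neighboring summits was 25.4 kb in non-transformed and 11.4 kb in transformed cells, and 48.8% and 31.1% of the sites had no other within 10 kb. With a cluster defined as 5 or more sites, each at most 10 kb from the next, non-transformed cells had 607 clusters with 9.09% of the sites (8.82 to 9.36%) and transformed cells had 2609 with 22.9% (22.6 to 23.1%). Clusters of 10 or more sites numbered 40 and 363. Most of this difference went with the length of the list, because the 42810 strongest sites of transformed cells formed 746 clusters with 10.9% of the sites. The strongest sites were clustered more often after transformation, with 48.2% of the first 1000 in clusters against 15.6% before, and 24.7% with the list shortened in this way.

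**Figure D5:**
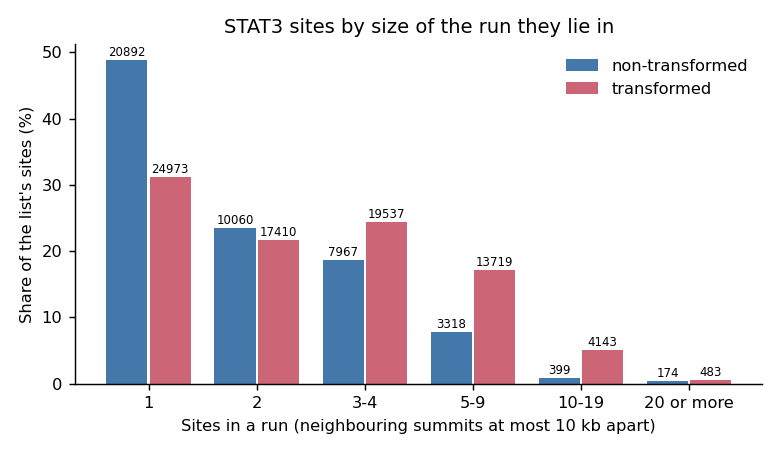
Share of STAT3 sites (%, y axis) by the number of sites in the run they lie in (x axis), where a run joins neighboring summits at most 10 kb apart, in non-transformed (blue) and transformed cells (red), with the number of sites above each bar. Single sites make up 48.8% of the non-transformed and 31.1% of the transformed list, and the share in runs of 5 or more is higher in transformed cells.

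Most clusters of transformed cells held earlier sites. Of the 2609, 439 held 5 or more STAT3 sites of non-transformed cells, 1998 held 1 to 4, and 172 held none, and 107 consisted of gained sites alone. Of all gained sites, 45.9% lay within 10 kb of a STAT3 summit of non-transformed cells (45.5 to 46.4%) and 81.4% within 50 kb, with a median of 12.2 kb. Of the lost sites, 51.9% lay within 10 kb of a summit of the longer transformed list, with a median of 9.13 kb. The cluster with the most sites in transformed cells, at chr14:61928072-62041386, spans 113 kb and has 40 sites, of which 21 were gained, with a median of 3.40 and a highest value of 12.5 ppm. In non-transformed cells 19 sites lay in it. The other proteins went from 30 to 45 sites there for FOS, 22 to 36 for JUN, 21 to 32 for JUNB, and 8 to 34 for NFKB1. Their whole lists were longer in transformed cells as well, by factors of 1.37, 1.56, 1.34, and 5.57, respectively.

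The largest number of gained sites, 22 of 29, was in the cluster at chr6:43969483-44042068, where non-transformed cells had 9 sites. NFKB1 went from 3 to 22 sites in this interval, JUNB from 8 to 18, JUN from 20 to 26, and FOS from 25 to 31, which for NFKB1 and JUNB is again to be read against the longer lists, and for JUN and FOS is a smaller increase than over the whole list. The clusters with the most sites in non-transformed cells were of another kind. Those at chr1:144986358-145045229 and chr1:145055056-145117335 had 42 and 35 sites, and their counterparts in transformed cells, at chr1:144988103-145043617 and chr1:145055843-145116974, had 34 and 29. Their sites were mostly weak, with medians of 0.823 and 0.732 ppm before transformation, FOS and JUN had 46 to 71 sites in them in non-transformed cells, and 23 of the STAT3 sites in each were lost. The next, at chr10:42357980-42407721, near the centromere, had 31 sites, of which 10 were lost.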

How the data were processed

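For each library on its own, the authors ran MACS 2.0.10.20131216 on tags of 36 bp, without a control library, with a genome size of 2700000000 bp, a local background over 1000000 bp, no position counted more than 1 time, and 0.05 as the cutoff on q-values. The submitters' processing notes also name Bowtie and hg19. The deposited pileup is a signal not scaled by depth, the deposited fold enrichment is a ratio to the local background of MACS, and the deposited significance is −log10 of the q-value. Tag totals were read from the list headers. Positions are 1-based, as deposited.

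Sites were ranked by −log10 q-value, ties by pileup, and matched by summit within 300 bp. Pairs are mutual nearest summits. Named sites are the 10 strongest of each state, the 5 largest rises and falls in rank involving the first 1000 of the state where the site is strong, the 5 strongest gained and lost sites, and the 3 clusters with the most sites in each state and with the most gained sites. The sites, rules, and alternatives were chosen with earlier results of these data known. Mitochondrial and chromosome Y peaks were not compared. Genes, sequences, and motifs were not analysed here, because the reference at hand is GRCh38. Other match distances, thresholds, scalings, rankings, and list lengths were tried. Matching was tested on simulated data. Python 3.11.15, numpy 2.4.6, pandas 2.3.3, scipy 1.17.1, and matplotlib 3.10.9 were used.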

Additional observations from a re-analysis of the deposited data

Results flagged for a closer look

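STAT3 peaks outside the chromosomes compared were present in both lists. On chromosome Y there were 52 peaks in non-transformed and 39 in transformed cells, of which 27 and 29 had a summit within 300 bp in the other state, with highest values of 2.47 and 2.01 ppm (tags per 1000000 filtered tags). On the mitochondrial genome there were 10 peaks in non-transformed and 11 in transformed cells, with highest values of 23.6 and 15.2 ppm. The comparison does not use these peaks, and no list of control DNA was analysed here.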

How the results depend on the processing

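With 1 library per state, leaving out a replicate is not possible, and the intervals cover the sampling of sites only. No paired analysis was possible because each state has 1 sample and the labels carry no replicate numbers. The motif search was not run. Weak sites are limited by depth, since the weakest have 4 or 5 tags.

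The ratio of site numbers stayed above 1 under its 3 alternatives, and the median pileup ratio under the other scalings and match distance, but many sizes moved. Sites with a −log10 q-value of at least 10 gave a site ratio of 2.74, a kept share of 94.9%, a gained share of 43.8%, and no AP-1 at 12.4% of the lost sites instead of 47.8%. Sites with at least 2 ppm (tags per 1000000 filtered tags) gave 4.02, 97.9%, and 31.4%, a ratio of the highest to the lowest chromosome of 2.10 instead of 1.34, and 48.5% of gained sites within 10 kb of an earlier one. Pairs with at least 2 ppm in either state gave a median pileup ratio of 2.33 and 61.8% at least 2-fold higher, but 16090 kept sites reached this level in the transformed list and 5712 in the other, so that most of these pairs passed through the transformed side and the values support no direction. Lists of equal length gave a kept share of 54.9%, a gained share of 45.5%, and 10.9% of the sites of transformed cells in clusters. Matching within 100 bp gave a kept share of 63.6%, a gained share of 66.1%, a pileup ratio of 1.72, and no AP-1 at 54.7% of the lost sites. Matching within 1000 bp gave 75.7% kept and 54.1% gained, and overlap of peaks 62.1% gained. Scaling by all aligned tags gave a pileup ratio of 2.44 and fold enrichment 1.54, with 31.9% of pairs at least 2-fold higher, and ratios divided by their median gave 12.8%. Of the first 100 sites 27% were shared and of the first 5000 55.3%. Clusters held 11.1% of the sites of transformed cells with neighbors at most 5 kb apart (3.60% in non-transformed cells) and 42.7% with 20 kb (20.8%). Gained sites lay near earlier ones in 33.6% within 5 kb and 81.4% within 50 kb. Chosen after seeing the data, division by fragment length gave a pileup ratio of 2.13, and leaving out sites listed in all 10 lists gave 19.97% of sites in clusters (5.98% in non-transformed cells) and 42.4% of the first 1000 shared.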
